A study of Mus musculus with 21 samples.

Results

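The 38 genes described here encode the enzymes of glycolysis, the pyruvate dehydrogenase complex with its kinases, and the tricarboxylic acid (TCA) cycle. They were chosen by gene symbol from the 22058 protein-coding genes of the count table, and 19 of them act in the cytosol and 19 in mitochondria. Expression was measured by 3' mRNA sequencing with unique molecular identifiers in the anterior right hemisphere of the brain of 9 eIF2B HOM mice (5 female, 4 male, aged 93 to 114 days) and 12 wild-type mice (7 female, 5 male, aged 90 to 114 days). All mice were of the C57Bl6/J strain. eIF2B HOM mice carry the R191H mutation in both copies of Eif2b5, which encodes the catalytic subunit of eIF2B, and this knock-in is in every cell of the animal rather than in a chosen cell type. Wild-type mice carry no mutant copy. Batch 2 held 5 eIF2B HOM and 4 wild-type mice, and batch 1 held 4 eIF2B HOM and 8 wild-type mice.

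eIF2B recharges the initiation factor eIF2 with GTP, and its failure switches on the integrated stress response, in which the transcription factor ATF4 raises genes of amino acid metabolism. Glycolysis splits glucose into pyruvate in the cytosol. Pyruvate is reduced to lactate there, or enters mitochondria, where pyruvate dehydrogenase turns it into acetyl-CoA and the TCA cycle oxidises it. In the brain, astrocytes are known for glycolysis and lactate release, and neurons for a high demand on mitochondrial oxidation. The question put to the data was whether cytosolic and mitochondrial steps differed between the genotypes, and whether any difference was seen within each batch.

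Libraries held 727018 to 2918902 counts in eIF2B HOM mice and 827862 to 3100141 counts in wild-type mice. The members together took 0.370% to 0.499% of the counts in eIF2B HOM mice (median 0.425%) and 0.328% to 0.522% in wild-type mice (median 0.387%). Levels are given as CPM, counts scaled to the size of the library, with TMM factors, which adjust for its composition. Reads came from transcript ends, so a level is not per length and is compared between mice, never between genes. Counts of 100 or more stand in the table rounded to 2 significant digits, which can move a single value by up to 5%. Of the 38 members, 34 passed the filter on low counts (15 cytosolic and 19 mitochondrial), and Hk2, Pgk1, Pgam1 and Aco1 did not. Age went with batch, since batch 2 mice were 90 to 104 days old and batch 1 mice 104 to 114 days old, so age and batch cannot be told apart. Within batch 2 the eIF2B HOM mice were 93 to 104 days and the wild-type mice 90 to 92 days old, so genotype and age cannot be told apart there either. In bulk tissue, fewer cells of a type and less RNA per cell cannot be told apart. Neuronal markers (0 of 6 called, median log2 fold change 0.01) were near the level of wild type in the fit over all mice. Within batches their median was -0.12 in batch 2 and -0.17 in batch 1, with 0 of 6 called in each. Of the glial markers Gfap (0.78) was higher, and Slc1a2 (-0.76) and Mbp (-0.49) were lower in eIF2B HOM mice, and the part of these cell markers in the values of the members was not tested.

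No member was called between eIF2B HOM and wild-type mice. The count was 0 of 34 with edgeR's quasi-likelihood test at a Benjamini-Hochberg adjusted p under 0.05 over 9192 genes, and 4.32% of all genes tested were called. The smallest adjusted p of a member was 0.114. At an unadjusted p under 0.05 there were 8 of 34 members, 2 higher and 6 lower, and 16.5% of all genes met that level. DESeq2 called 0 members (4.59% of all genes), and limma voom called Idh3b alone (5.96% of all genes). Log2 fold changes of the members ran from -0.42 (Eno1) to 0.23 (Aldoa), with a median of 0.02, against -0.01 over all genes tested. The median was 0.03 for the cytosolic and -0.03 for the mitochondrial members. The 95% interval lay within 0.5 of 0 on the log2 scale for 30 of the 34 members, and for 75.4% of all genes tested. It lay within 1 for 34 of 34 members, and for 9057 of the 9192 genes. Every member's levels in eIF2B HOM mice overlapped those in wild-type mice.

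**Figure D1:**
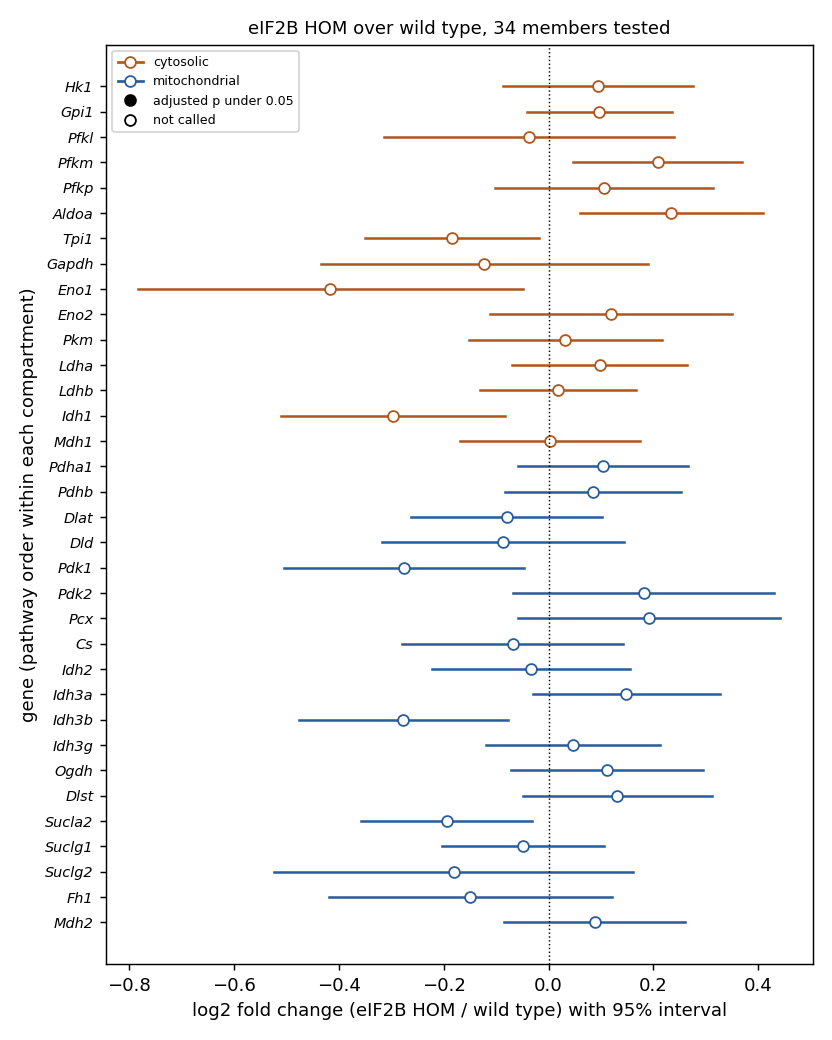
Log2 fold change, eIF2B HOM over wild type, for the 34 members tested (points) with 95% intervals (lines), in pathway order, cytosolic members above mitochondrial ones. Points run from -0.42 for Eno1 to 0.23 for Aldoa, and no point is filled because no adjusted p was under 0.05.

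At the first step of glycolysis, hexokinases phosphorylate glucose. Hk1, the main hexokinase of brain, had a lowest, median and highest level of 98.1, 156 and 204 CPM in eIF2B HOM mice, against 90.9, 150 and 216 CPM in wild-type mice. The fold change on the log2 scale was 0.09 (SE 0.09, adjusted p = 0.667), and the groups overlapped over most of their range. Hk2 (chr6:82725025-82774454, minus strand), an inducible hexokinase that binds mitochondria in many tissues, failed the filter. In batch 2 it had 7.80, 9.61, 6.35, 8.11 and 5.04 CPM in the 5 eIF2B HOM mice, against 2.16, 1.71, 0.782 and 4.76 CPM in the 4 wild-type mice. The groups did not overlap there, and the share of all genes without overlap in that batch was not counted. In batch 1 Hk2 had 5.94, 4.09, 6.89 and 3.45 CPM in eIF2B HOM mice, against 1.29 to 6.19 CPM (median 4.04) in the 8 wild-type mice, and these groups did overlap.

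Over all mice Hk2 was 2.97 CPM higher in eIF2B HOM mice, which held 94 counts over 9 libraries, against 59 counts over 12 wild-type libraries. A 2-sided exact permutation test over all 293930 splits, which took no account of batch, age or sex, gave p = 0.00254. All 9 eIF2B HOM mice were above the wild-type median. The difference was 5.03 CPM in batch 2 (exact p = 0.0159, 126 splits) and 1.18 CPM in batch 1 (exact p = 0.279, 495 splits). With edgeR and no filter on low counts Hk2 was the single member called (log2 fold change 0.93, SE 0.27, adjusted p = 0.0370 over 16644 genes, of which 2.43% were called). In the fit over all mice with the filter it was not tested. In batch 2 alone Hk2 passed the filter only through the eIF2B HOM mice, since 4 of the 5 eIF2B HOM and 0 of the 4 wild-type libraries reached the limit of 6.35 CPM there. A gene let in that way had to differ, so its log2 fold changes in that batch, 1.33 with edgeR and 1.601 with limma voom (which called 1.32% of all genes), are a description and support nothing. Whether the Hk2 difference itself differed between batches was not tested.

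Phosphofructokinase, the committed step of glycolysis, is made from 3 subunits. Pfkm, the muscle-type subunit, had 81.9, 113 and 130 CPM as lowest, median and highest level in eIF2B HOM mice, against 86.8, 96.9 and 109 CPM in wild-type mice. For Pfkm the log2 fold change was 0.21 (SE 0.08, adjusted p = 0.147), and 7 of the 9 eIF2B HOM mice were above the wild-type median. Pfkl, the liver-type subunit, had 11.03, 15.5 and 30.9 CPM in eIF2B HOM mice, against 11.6, 19.2 and 29.7 CPM in wild-type mice (log2 fold change -0.04, SE 0.14, adjusted p = 0.980). Pfkp, the platelet-type subunit, had 74.3, 102 and 132 CPM in eIF2B HOM mice, against 62.1, 92.5 and 156 CPM in wild-type mice (log2 fold change 0.11, SE 0.10, adjusted p = 0.675). None of the 3 subunits was called. Gpi1, which converts glucose 6-phosphate to fructose 6-phosphate, varied least of the members tested (residual SD 0.106 on the log2 scale, around the mean of each genotype in each batch). Gpi1 had a log2 fold change of 0.10.

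Aldoa, an aldolase that splits the 6-carbon sugar, had the highest fold change of the tested members. Its lowest, median and highest level was 422, 571 and 819 CPM in eIF2B HOM mice, against 295, 459 and 825 CPM in wild-type mice (log2 fold change 0.23, SE 0.09, adjusted p = 0.128). The estimates within the separate batches had opposite signs. In batch 2 Aldoa had a median of 649 CPM in eIF2B HOM mice, against 642 CPM in wild-type mice (log2 fold change -0.04). In batch 1 the medians were 510 CPM in eIF2B HOM mice and 439 CPM in wild-type mice (0.26). The genotype by batch term of Aldoa was -0.32 (SE 0.18, unadjusted p = 0.0853) and was not called.

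Tpi1, which interconverts the triose phosphates, had a log2 fold change of -0.18 (adjusted p = 0.235). Gapdh, the next enzyme, varied most of the members (residual SD 0.572) and had a log2 fold change of -0.12. Transcript ends of Gapdh matched 132 other annotated genes, 129 of them pseudogenes or noncoding, at 95% identity or more over at least 100 bases, and 11 of the 38 members had such a match or a gene overlapping them (Gpi1, Pfkp, Aldoa, Tpi1, Gapdh, Eno1, Pkm, Ldha, Ldhb, Pdha1 and Suclg2). How the counting treated those reads was not tested, so these members' levels are uncertain. Pgk1 and Pgam1 had no such match, and whether their low counts depend on the settings of the counting was not tested. Pgk1, which yields the first ATP of the pathway, had at most 9.90 CPM. In batch 2 its levels were 2.60, 4.21, 2.47, 2.92 and 2.52 CPM in eIF2B HOM mice, against 0, 1.14, 1.56 and 1.27 CPM in wild-type mice. These did not overlap (exact p = 0.00794, the smallest that 126 splits can give). How many of all genes do the same in that batch was not counted, so the separation is a description. In batch 1 the difference had the other sign, -3.06 CPM (exact p = 0.103), with 0, 4.09, 1.38 and 4.32 CPM in eIF2B HOM mice and 1.80 to 9.90 CPM in wild-type mice. Pgam1, the phosphoglycerate mutase, was 1.84 CPM higher in eIF2B HOM mice (exact p = 0.0929). These exact tests of the 4 members that failed the filter, over all mice and in each batch, were 12 in all and their p-values are unadjusted.

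**Figure D2:**
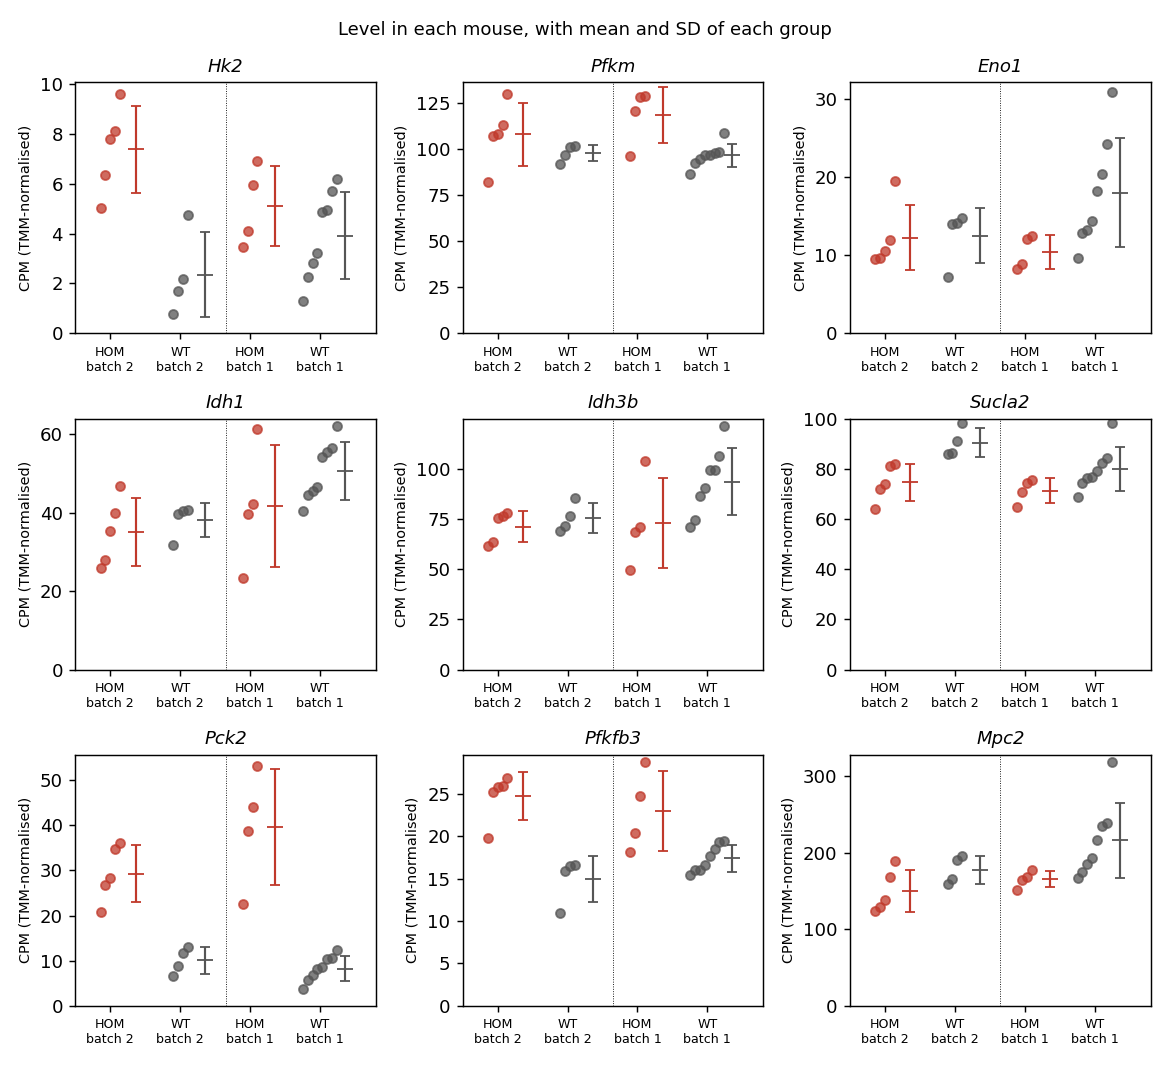
Level of 6 members and of the neighbouring pathway genes Pck2, Pfkfb3 and Mpc2 in each mouse (points, CPM, axes from 0), with the mean and SD of each group beside them. HOM is eIF2B HOM and WT is wild type. Hk2 separates the genotypes in batch 2 and not in batch 1, and Pck2 separates them in both. The share of all genes that do so was not counted.

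Enolases make phosphoenolpyruvate. Eno1, the form of most tissues and of glia, had 8.17, 10.6 and 19.5 CPM as lowest, median and highest level in eIF2B HOM mice, against 7.22, 14.3 and 30.9 CPM in wild-type mice. Its log2 fold change of -0.42 (SE 0.18, adjusted p = 0.223) was the lowest of the members, and 8 of the 9 eIF2B HOM mice were below the wild-type median. Within batches Eno1 gave 0.00 (batch 2) and -0.76 (batch 1), which were not called. Eno2, the neuronal enolase, had 177, 251 and 397 CPM in eIF2B HOM mice, against 151, 264 and 413 CPM in wild-type mice (log2 fold change 0.12, SE 0.11, adjusted p = 0.667). Pkm, the pyruvate kinase, had a log2 fold change of 0.03.

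Lactate dehydrogenase interconverts pyruvate and lactate. Its A subunit, Ldha, had 150, 198 and 277 CPM as lowest, median and highest level in eIF2B HOM mice, against 136, 180 and 311 CPM in wild-type mice (log2 fold change 0.10, SE 0.08, adjusted p = 0.614). Its B subunit, Ldhb, had 191.3, 198 and 272 CPM in eIF2B HOM mice, against 184, 203 and 251 CPM in wild-type mice (log2 fold change 0.02, SE 0.07, adjusted p = 0.943). Both subunits stayed within the spread of wild-type mice apart from 1 eIF2B HOM mouse with a high Ldhb level.

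Pyruvate dehydrogenase joins the pathways. Its subunits Pdha1, Pdhb, Dlat and Dld, the last shared with other dehydrogenases, had log2 fold changes from -0.09 to 0.10. The pyruvate dehydrogenase kinases switch the complex off. Pdk1 had 20.7, 35.5 and 44.9 CPM as lowest, median and highest level in eIF2B HOM mice, against 30.3, 40.8 and 49.6 CPM in wild-type mice (log2 fold change -0.28, SE 0.11, adjusted p = 0.186). Pdk2 had 39.5, 60.7 and 69.3 CPM in eIF2B HOM mice, against 23.5, 50.02 and 72.2 CPM in wild-type mice (log2 fold change 0.18, SE 0.12, adjusted p = 0.499). The kinases had opposite signs, and neither was called. Pcx, which makes oxaloacetate from pyruvate and in brain is known as an astrocyte enzyme, had a log2 fold change of 0.19.

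In the TCA cycle, Cs condenses acetyl-CoA with oxaloacetate, and its log2 fold change was -0.07. Aco1, the cytosolic aconitase and iron sensor, failed the filter (difference -1.02 CPM, exact p = 0.410). Isocitrate dehydrogenases come in 3 kinds. Idh1, the NADP-linked cytosolic enzyme, had 23.4, 39.6 and 61.3 CPM as lowest, median and highest level in eIF2B HOM mice, against 31.7, 45.1 and 62.1 CPM in wild-type mice. Its log2 fold change was -0.30 (SE 0.11, adjusted p = 0.114), and with batch added to sex and age it was -0.42 and called (edgeR adjusted p = 0.0396, with 2.68% of all genes called). Within batches Idh1 gave -0.17 in batch 2 (edgeR adjusted p = 0.842) and -0.30 in batch 1 (edgeR adjusted p = 0.678). Idh2, its mitochondrial counterpart, had 78.1, 104 and 129 CPM in eIF2B HOM mice, against 80.9, 103 and 132 CPM in wild-type mice (log2 fold change -0.03, SE 0.09, adjusted p = 0.916).

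The NAD-linked enzyme of the cycle is built from Idh3a, Idh3b and Idh3g. Idh3b had 49.6, 70.8 and 104 CPM as lowest, median and highest level in eIF2B HOM mice, against 68.8, 85.8 and 121 CPM in wild-type mice, and 8 of 9 eIF2B HOM mice were below the wild-type median. Its log2 fold change was -0.28 (SE 0.10, adjusted p = 0.114 with edgeR) and -0.29 with limma voom (adjusted p = 0.0414). It was -0.12 in batch 2 and -0.36 in batch 1. Idh3a (0.15) and Idh3g (0.05) had the other sign, and neither was called. Of the 2-oxoglutarate dehydrogenase subunits, Ogdh had a log2 fold change of 0.11 and Dlst of 0.13. All 9 eIF2B HOM mice were above the wild-type median of Dlst, and their levels (55.1, 58.9 and 73.1 CPM as lowest, median and highest) still overlapped those of wild-type mice (48.5, 54.1 and 66.8 CPM).

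Succinyl-CoA ligase has the common subunit Suclg1, the ATP-linked Sucla2 and the GTP-linked Suclg2. All 9 eIF2B HOM mice were below the wild-type median of Sucla2, with 64.1, 74.1 and 81.9 CPM as lowest, median and highest level, against 68.8, 83.4 and 98.4 CPM in wild-type mice. For Sucla2 the log2 fold change was -0.19 (SE 0.08, adjusted p = 0.189), with -0.25 in batch 2 and -0.17 in batch 1. Suclg1 (-0.05) and Suclg2 (-0.18) were not called. Fh1, the fumarase, had a log2 fold change of -0.15, with 0.21 in batch 2 and -0.40 in batch 1. Its genotype by batch term of 0.64 (SE 0.31, unadjusted p = 0.0463) was the only one of a member under 0.05 before adjustment, and it was not called. Malate dehydrogenase closes the cycle and carries reducing power between compartments. The cytosolic Mdh1 had 190.7, 276 and 454 CPM in eIF2B HOM mice, against 213, 261 and 444 CPM in wild-type mice (log2 fold change 0.00, SE 0.08, adjusted p = 0.994). The mitochondrial Mdh2 had 163, 219 and 276 CPM in eIF2B HOM mice, against 159, 203 and 298 CPM in wild-type mice (log2 fold change 0.09, SE 0.09, adjusted p = 0.677).

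Within each batch no member was called. In batch 2, 36 members were tested and 0 were called by edgeR (1.18% of all genes were), and 4 had an unadjusted p under 0.05 (8.95% of all genes). Those 4 were Hk2 (1.33, let in by the eIF2B HOM mice alone and so no support) and Ogdh (0.33), with positive log2 fold changes, and Pdk1 (-0.33) and Sucla2 (-0.25), with negative ones. In batch 1, 35 members were tested and 0 were called (0.965% of all genes were), and 4 had an unadjusted p under 0.05 (8.93% of all genes). Those were Pfkm (0.30), Dlst (0.30), Eno1 (-0.76) and Idh3b (-0.36), so no member met that level in both batches. In batch 1 Eno1 passed the filter through the wild-type mice (2 of 4 eIF2B HOM and 8 of 8 wild-type libraries over the limit of 9.24 CPM), so its value there supports nothing either, and the same holds for Aco1 (0 of 4 eIF2B HOM and 4 of 8 wild-type libraries), which was not called. Median log2 fold changes of the cytosolic members were -0.10 in batch 2 and 0.07 in batch 1, and of the mitochondrial members 0.01 in batch 2 and 0.04 in batch 1. The genotype by batch term was called for 0 of 34 members (0% of all genes), with 1 member under 0.05 unadjusted (3.55% of all genes). The genotype by sex term was likewise called for 0 of 34 members (0% of all genes), with 0 members under 0.05 unadjusted (2.74% of all genes). With limma voom the genotype by batch and genotype by sex terms also gave 0 members.

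To set the compartments side by side, the mean log2 CPM of the 19 mitochondrial members was subtracted from that of the 15 tested cytosolic members in each mouse. This difference was 0.698, 0.845, 0.850, 0.942 and 1.04 in the eIF2B HOM mice of batch 2, against 0.870, 0.963, 0.978 and 1.04 in the wild-type mice of batch 2. In batch 1 it was 0.599, 0.626, 0.700 and 0.774 in eIF2B HOM mice, against 0.550 to 0.810 (median 0.728) in wild-type mice. The medians differed by -0.12 in batch 2 and by -0.07 in batch 1, eIF2B HOM minus wild type, and in both batches the genotypes overlapped. The larger step was between batches. The median over both genotypes was 0.942 in batch 2 and 0.699 in batch 1, a difference of 0.24. It was 0.19 within eIF2B HOM and 0.24 within wild-type mice.

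**Figure D3:**
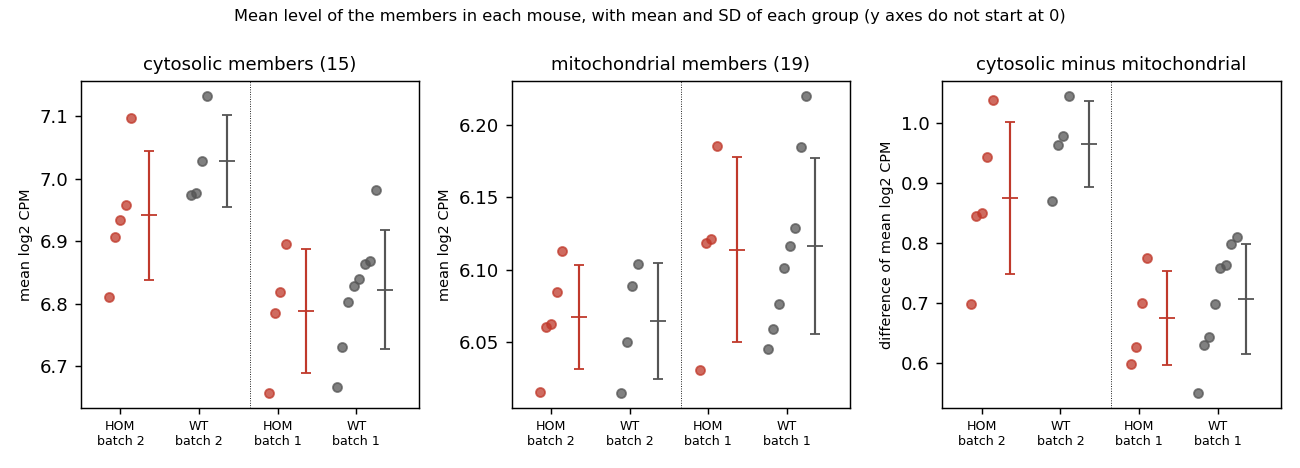
Mean log2 CPM of the cytosolic members, of the mitochondrial members, and the difference between the 2 means in each mouse (points), with the mean and SD of each group. The y axes do not start at 0. The difference has a median of 0.942 in batch 2 and 0.699 in batch 1, and within a batch the genotypes overlap.

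Between the batches, with genotype and sex in the model, 10 of the 34 members were called. The 7 that were higher in batch 2 were all cytosolic (Hk1, Pfkl, Pfkp, Aldoa, Eno2, Ldha and Mdh1), where 10.2% of all genes were called higher. The 3 that were lower in batch 2 were all mitochondrial (Cs, Ogdh and Suclg2), where 11.4% of all genes were called lower. The median log2 difference was 0.22 for cytosolic and -0.04 for mitochondrial members, and 0.00 over all genes tested. Not all cytosolic members went one way. Gapdh (-0.48), Idh1 (-0.34), Eno1 (-0.32), Tpi1 (-0.18), Ldhb (-0.16) and Pfkm (-0.06) had negative values, which edgeR did not call. Of these, limma voom called Idh1 lower in batch 2 (-0.32, adjusted p = 0.0466). With age added to the model 0 members and 0 of all genes were called, and 16 of the 34 members changed sign (7 cytosolic and 9 mitochondrial). Of the 10 called members these were Hk1 and Pfkp, and Suclg2 came to -0.19. Among the others, Gapdh (0.47), Idh1 (0.47), Tpi1 (0.02) and Fh1 (0.51) had positive values with age in the model, and the medians were 0.10 for cytosolic and -0.14 for mitochondrial members. The batch values given here therefore hold for batch and age together.

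Aldoa (chr7:126795234-126800751, minus strand, build GRCm38) had 537, 642 and 825 CPM as lowest, median and highest level in batch 2, against 295, 446 and 594 CPM in batch 1. Of the 9 batch 2 mice, 7 were above every batch 1 mouse, and the log2 difference was 0.51 (SE 0.09, adjusted p = 0.00029). Mdh1 (chr11:21556787-21572367, minus strand) had 260, 325 and 454 CPM in batch 2, against 190.7, 254 and 297 CPM in batch 1 (log2 difference 0.47, SE 0.09, adjusted p = 0.000617). Again 7 of 9 batch 2 mice were above all of batch 1. Pfkl had 12.1, 23.5 and 30.9 CPM in batch 2, against 11.03, 14.2 and 21.04 CPM in batch 1 (0.61, SE 0.15, adjusted p = 0.00461). For Hk1 the log2 difference was 0.46, for Eno2 0.51, for Ldha 0.41 and for Pfkp 0.42.

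Suclg2 (chr6:95473009-95718800, minus strand) had the largest difference of the members tested. Its lowest, median and highest level was 7.94, 10.2 and 19.9 CPM in batch 2, against 13.8, 25.5 and 44.9 CPM in batch 1 (log2 difference -1.17, SE 0.21, adjusted p = 0.0003). Of the 9 batch 2 mice, 6 were below every batch 1 mouse. Cs had 50.8, 57.9 and 68.5 CPM in batch 2, against 45.5, 72.3 and 98.1 CPM in batch 1 (-0.37, SE 0.11, adjusted p = 0.0173). Ogdh had 49.3, 62.6 and 82.3 CPM in batch 2, against 68.5, 77.2 and 101 CPM in batch 1 (-0.32, SE 0.10, adjusted p = 0.0143). All 10 of these members overlapped between the batches in part.

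**Figure D4:**
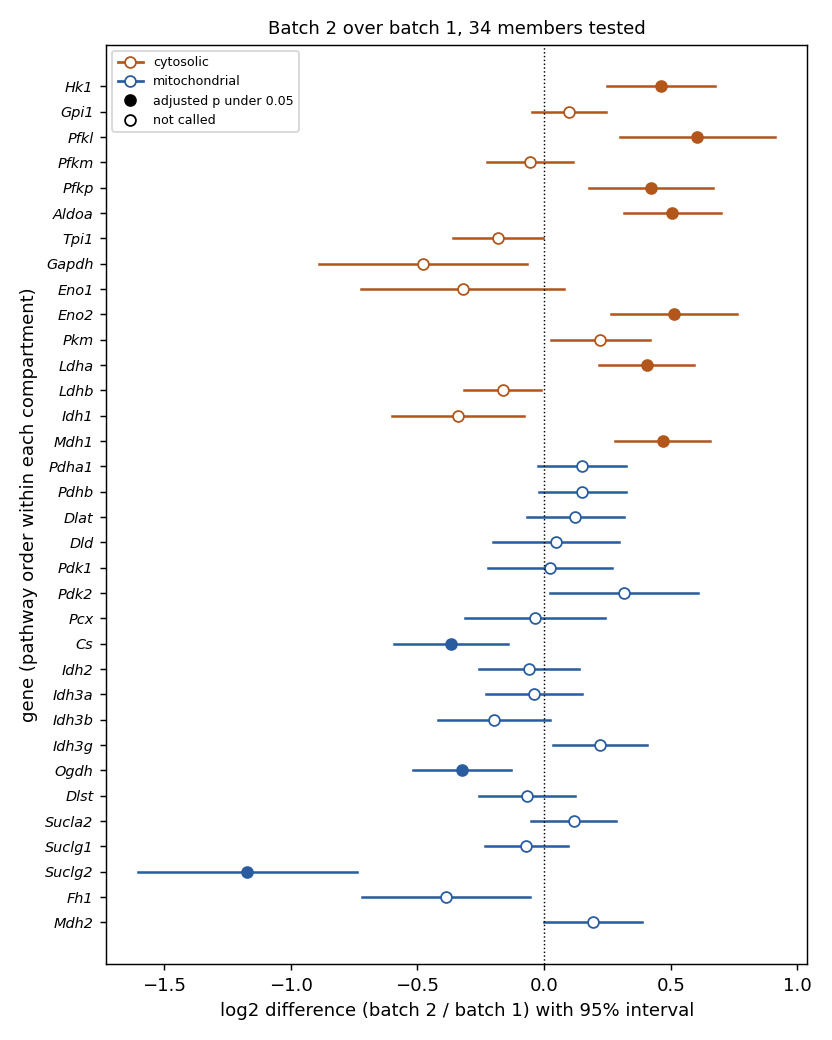
Log2 difference, batch 2 over batch 1, for the 34 members tested (points) with 95% intervals (lines), in pathway order. Filled points have an adjusted p under 0.05: 7 cytosolic members to the right of 0 and 3 mitochondrial members to the left.

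The batch values were also computed within each genotype, an alternative chosen after the data were seen. In wild-type mice alone 32 members were tested, 7 were called higher in batch 2 (6.32% of all genes) and 4 lower (6.44% of all genes). The 7 were Hk1, Pfkl, Pfkp, Aldoa, Eno2, Ldha and Mdh1, and the 4 were Gapdh, Cs, Ogdh and Fh1. In eIF2B HOM mice alone 33 members were tested and 0 were called (4% of all genes), with 5 higher and 2 lower at an unadjusted p under 0.05. Aldoa gave 0.33 in eIF2B HOM mice and 0.68 in wild-type mice, and Mdh1 gave 0.44 in eIF2B HOM mice and 0.52 in wild-type mice. Suclg2 gave -1.03 (adjusted p = 0.0711) in eIF2B HOM mice and failed the filter in wild-type mice alone. Whether the batch difference of these genes depended on genotype is the genotype by batch term, which called none of them.

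Cell markers moved between the batches as well. Of the neuronal markers, 4 of 6 were higher in batch 2 (median log2 difference 0.31), and their summed level was 4811 to 5916 CPM in batch 2, against 3821 to 5301 CPM in batch 1. Of the astrocyte markers, 3 of 6 were lower (median -0.31), with a summed level of 2911 to 7397 CPM in batch 2, against 4333 to 8670 CPM in batch 1. Oligodendrocyte markers were split, with 1 higher and 2 lower of 6 (3954 to 6276 CPM in batch 2, against 4423 to 10998 CPM in batch 1). No marker of these lists was at 0 in all libraries, and the part of cell makeup in the batch differences was not tested. Doc2g, a gene of the olfactory bulb, was above 15 CPM in 4 libraries, 1 eIF2B HOM and 3 wild-type, all of batch 1. Without those 4 libraries the same number of members was called (7 higher and 3 lower), and the difference between the compartment means was 0.27. The share of all genes called in that fit is not given here, so its count of members is a description.

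**Figure D5:**
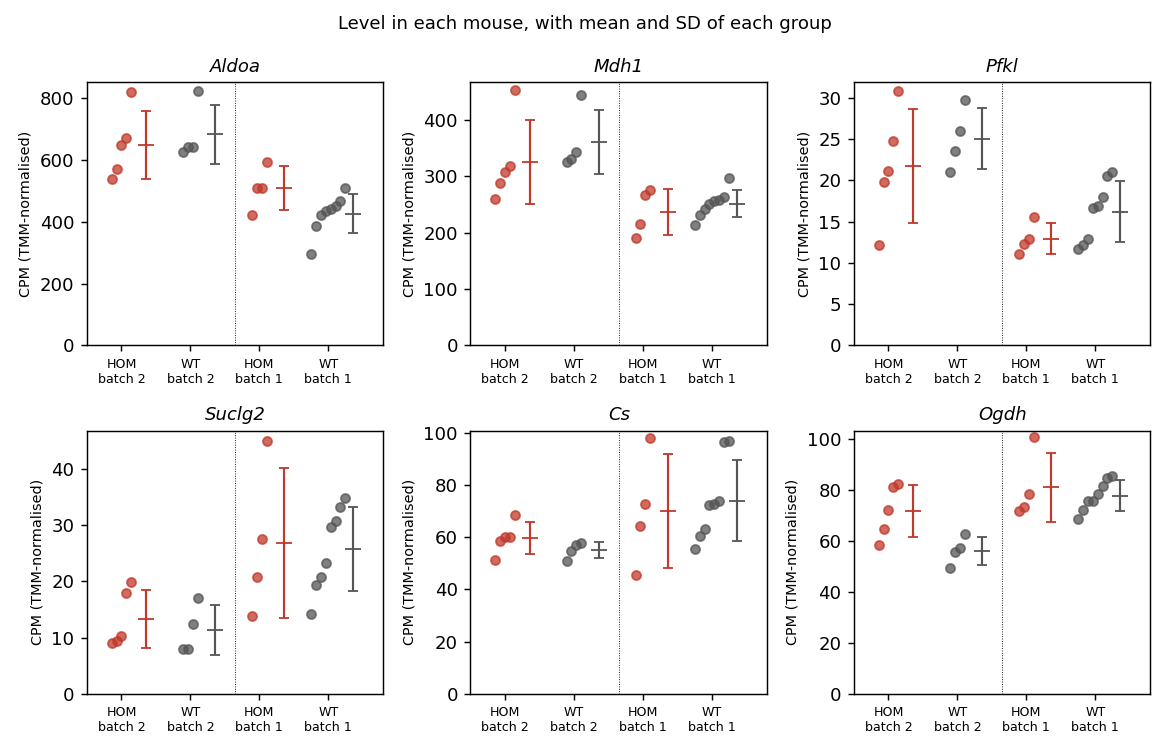
Level of 3 cytosolic members (Aldoa, Mdh1, Pfkl) and 3 mitochondrial members (Suclg2, Cs, Ogdh) in each mouse (points, CPM, axes from 0), with the mean and SD of each group. The cytosolic members are higher and the mitochondrial ones lower in batch 2 than in batch 1 at the median, and within each batch the genotypes overlap.

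Of 52 further genes of the pathways, 34 were tested, 2 were called higher and 1 lower between the genotypes, where 4.32% of all genes were called. Pck2, the mitochondrial phosphoenolpyruvate carboxykinase, which makes phosphoenolpyruvate from oxaloacetate and is a known ATF4 target, had 20.8, 34.7 and 53.1 CPM as lowest, median and highest level in eIF2B HOM mice, against 3.61, 8.78 and 13.1 CPM in wild-type mice. The genotypes did not overlap, and the share of all genes without overlap was not counted. Its log2 fold change was 1.86 (SE 0.17, adjusted p = 1.14e-10), with 1.498 in batch 2 and 2.27 in batch 1, and both were called. Pfkfb3, which makes the activator of phosphofructokinase, had 18.1, 25.2 and 28.7 CPM in eIF2B HOM mice, against 10.9, 16.6 and 19.4 CPM in wild-type mice (0.53, SE 0.12, adjusted p = 0.00543). Mpc2, a subunit of the mitochondrial pyruvate carrier, had 124, 164 and 189 CPM in eIF2B HOM mice, against 159, 192 and 318 CPM in wild-type mice (-0.38, SE 0.10, adjusted p = 0.0126). The Pfkfb3 and Mpc2 calls were lost within each batch (Pfkfb3 0.68 in batch 2 and 0.38 in batch 1, Mpc2 -0.25 in batch 2 and -0.38 in batch 1). The succinate dehydrogenase subunits had log2 fold changes of 0.04 (Sdha), 0.13 (Sdhb), -0.25 (Sdhc) and 0.02 (Sdhd). None of these 4 was called.

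Promoter sequence was set beside these values, since ATF4 binds the C/EBP-ATF element TGATGNAA. RefSeq promoter windows, 250 bases before to 50 after a start site on build GRCm38.p6, were found for 37 of the 38 members, all but Idh3a. TGATGNAA, searched on both strands in every window of a gene, was in 0 of those 37, and in 4.51% of the 27025 genes with a window. Pck2 held it. The stretch below is printed to show the element beside Pck2, the only one of the 3 called neighbours that held it, with the match in capitals, on its reverse strand, at chr14:55540152-55540181 (gene on the plus strand).
Pck2: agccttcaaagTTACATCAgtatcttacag
The core of the hypoxia response element, ACGTG, bound by HIF-1, a known regulator of glycolytic genes, was in 15 of the 37 members (40.5%), against 21.8% of all genes with a window. Of the members called higher in batch 2, Hk1, Aldoa, Ldha and Mdh1 held ACGTG, and Pfkl, Pfkp and Eno2 did not. Of those called lower, Ogdh held it, and Cs and Suclg2 did not. Whether the element has a part in the batch differences was not tested. ACGTG is shown, in capitals, for Aldoa (chr7:126799364-126799393, minus strand, match on the reverse strand of the gene) and Mdh1 (chr11:21572117-21572146, minus strand). These are the 2 members with the smallest p of those higher in batch 2.
Aldoa: atgtggctcgagtCACGTcctagcggggcg
Mdh1: tctcggtggagcgACGTGtgctgtcgctca
A match is a description of the letters in this window and not a binding site.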

How the data were processed

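RNA of 21 mice was sequenced from transcript 3' ends (QuantSeq, with unique molecular identifiers). The authors trimmed reads with skewer, aligned them with STAR to GRCm38.p6, and counted them per gene with featureCounts (Subread 1.6.2 per the submitters' processing notes); the strand setting is not given in the sources used here. The table the authors deposited holds whole-number counts for 22058 coding genes, in which 100% of counts of 100 or more are rounded to 2 significant digits, an error of up to 5% in a single value. The deposited CPM table was not used.

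Groups, sex, age and batch came from the sample labels, and every column matched 1 label. Genes were filtered with filterByExpr by genotype, scaled by TMM and fitted with edgeR 4.0.16 (robust quasi-likelihood, genotype with sex and age), in R 4.3.3, with Benjamini-Hochberg adjustment over all genes tested. The study's own test was limma with voom, which with DESeq2 1.42.0 served as an alternative (limma 3.58.1). Fits within batches held genotype and sex, and the fit between batches held batch, genotype and sex. SE is the log2 fold change divided by the square root of the F statistic. Log2 CPM used a prior count of 2. Members that failed the filter were compared by exact permutation tests on CPM, which held no covariates. The fits were tested on simulated counts with known changes. All 38 members are named. Those called, isoenzyme pairs and kinases were to be given with full values, and the others by range. Members such as Dlst, Sucla2 and Idh3b, and the alternatives by genotype and by Doc2g, were singled out after their values were seen. The members and gene lists were chosen with earlier results of these data known, so nothing here is independent of them. Among 102 pairs of libraries of one genotype, 0 were identical, and the closest pair differed by more than sampling noise (chi-square per degree of freedom 1.44). Mice are separate animals. The labels name no litter.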

Additional observations from a re-analysis of the deposited data

Results flagged for a closer look

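In 3 of 39 comparisons of the 9 eIF2B HOM mice with each other (38 members and the difference between the compartment means), the highest mouse stood apart from the others by more of the range than the 95% critical value of Dixon's test for 9 samples allows. Chance marks about 1 in 20 such groups. Eno1 had 19.5 CPM in that mouse and 12.4 CPM in the next (0.627 of the range). Ldhb had 272 CPM and the next mouse 224 CPM (0.591). Mdh1 had 454 CPM and the next mouse 318 CPM (0.517). No reason for these values was tested.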

How the results depend on the processing

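Called members between genotypes stayed at 0 with DESeq2, RLE or upper-quartile factors, 10 counts in every sample, the filter with the full design, genotype alone, batch in place of age, each sex alone and without the 4 libraries high in Doc2g. The count was 1 with limma voom (Idh3b), 1 with no filter (Hk2) and 1 with sex, age and batch (Idh1). Leaving out 1 mouse gave 0 to 2: without wild-type replicate 4, 2 members (Aldoa and Idh3b) were called, and without eIF2B HOM replicate 9, 1 (Pfkm). The shares of all genes called in these leave-one-out fits are not given here, so the counts are a description. In batch 2 the count was 1 with voom (Hk2) and 0 to 1 when leaving out 1 mouse (Hk2 without wild-type replicate 12, log2 fold change 2.18), both of a gene that passed the filter only through the eIF2B HOM mice and so no support, and in batch 1 it was 0 to 0. Between batches, 10 members were called, 0 with age added, 0 in eIF2B HOM mice alone and 12 with voom, which called 2051 of the 9192 genes tested. The 12 were the same 10 with Idh1 (cytosolic, -0.32, adjusted p = 0.0466) and Fh1 (mitochondrial, -0.447, adjusted p = 0.0314), both lower in batch 2. With age added 16 of 34 members changed sign, and the difference was -0.0748 for Hk1 and -0.0579 for Pfkp. Signs of fold changes by genotype differed for 9 of 34 members with batch in place of age and for at most 6 under the other settings run. The difference between the compartment means moved by less than 1 SD with RLE or upper-quartile factors and without Aco1, Idh1, Mdh1, Pdk1 and Pdk2 (batch 2 -0.14, batch 1 -0.02, eIF2B HOM minus wild type). The cause of these shifts was not tested. Mpc2 lost its call with genotype alone, with batch in place of age and in each sex alone, and Pfkfb3 in each sex alone. Hk2, Pgk1, Pgam1 and Aco1 held 39 to 109 counts per genotype, which limits their precision. No paired analysis was possible because the labels name no litter and replicate numbers follow accession order.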
